A study of Mus musculus with 8 samples.

Results

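Immediate early activity genes are the genes whose transcription is switched on within minutes of synaptic input, without the need for new protein. The 10 described here, all found among the 17700 genes listed for each library, were taken by symbol: the zinc finger transcription factors Egr1, Egr2, Egr3 and Egr4, the AP-1 factors Fos, Fosb and Junb, the transcription factors Npas4 and Nr4a1, and the synaptic protein gene Arc. Their transcripts were counted by total RNA sequencing, after ribosomal RNA depletion, of frozen cerebellum of 8 mice of the C57BL/6JN strain. Old mice were 2 males of 93 and 83 weeks (old 1 and old 3) and 2 females of 83 and 102 weeks (old 2 and old 4). Young mice were 2 males of 19 weeks (young 1 and young 2) and 2 females of 19 and 22 weeks (young 3 and young 4). The mice carried no treatment or engineered allele according to the labels, and each library stands for 1 animal. The design text speaks of liver and of different ages; the groups here follow the labels of each sample. How the mice were housed and handled before death, and at what time of day, is not given in the sources used here.

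As background, calcium entry and kinase signalling at active synapses act on CREB and on serum response factor with its Elk partners, which already sit at these genes, and the transcripts then decay quickly. The EGR proteins bind GC-rich DNA, Fos and Fosb pair with Jun proteins to form AP-1, Npas4 is a neuron-specific factor that responds to calcium, Nr4a1 is an orphan nuclear receptor, and Arc promotes the removal of AMPA receptors from synapses. In the cerebellum Arc is known for its part in late long-term depression of synapses on Purkinje cells. Egr2, also called Krox20, is in addition a regulator of hindbrain patterning and of myelin in peripheral nerve, and it is expressed in myeloid cells.

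Total gene counts ran from 6132312 to 6784584 in old and from 6079485 to 7236720 in young libraries. Values are CPM, the counts of a gene relative to the scaled library total, with TMM scaling, on which 3 counts correspond to 0.421 to 0.511 CPM, a floor that covers counting error only. Cerebellar markers were present in every library, with the granule neuron gene Gabra6 at 395 to 552 CPM in old and 423 to 770 CPM in young, and the Purkinje cell gene Calb1 at 614 to 828 CPM in old and 643 to 848 CPM in young. The libraries were unequal in other tissues' transcripts: 7 liver genes summed to 2.84 to 84.2 CPM in old and 0.682 to 21.2 CPM in young, highest in old 2, old 3 and young 4 and with Alb at 0 counts in young 2 and young 3, and 7 choroid plexus genes to 47.5 to 888 CPM in old and 35.2 to 429 CPM in young. The sums of 7 brainstem genes were 0.943 to 23.7 CPM in old and 1.68 to 14.7 CPM in young, highest in old 1. In bulk tissue, fewer cells of a type and less RNA per cell cannot be told apart.

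The stretches of DNA just upstream of 3 of the genes are shown because Fos and Nr4a1 had low values in the same animals, while the fitted age difference of Egr2 was opposite in sign to those of the other 9. Sequences are the 200 bases before the transcription start, 5′ to 3′ on the strand of the gene, from RefSeq on GRCm38.p6. Capitals mark matches, on either strand, to TGACG (the core of the cAMP response element bound by CREB), the CArG box of serum response factor, the EGR motifs GCGTGGGCG and GCGGGGGCG, and TATAAA. No capitals from different motifs overlap in the sequences shown.
Egr2, chr10:67537669-67537868, + strand: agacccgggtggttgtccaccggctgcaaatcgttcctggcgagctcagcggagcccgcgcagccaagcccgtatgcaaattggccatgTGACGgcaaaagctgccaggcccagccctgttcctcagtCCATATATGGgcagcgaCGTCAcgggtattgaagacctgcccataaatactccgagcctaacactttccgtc
Fos, chr12:85473690-85473889, + strand: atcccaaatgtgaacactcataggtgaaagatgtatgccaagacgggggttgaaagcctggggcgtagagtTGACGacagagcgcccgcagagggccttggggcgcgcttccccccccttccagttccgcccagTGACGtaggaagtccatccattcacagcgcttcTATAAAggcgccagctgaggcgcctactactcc
Nr4a1, chr15:101266646-101266845, + strand: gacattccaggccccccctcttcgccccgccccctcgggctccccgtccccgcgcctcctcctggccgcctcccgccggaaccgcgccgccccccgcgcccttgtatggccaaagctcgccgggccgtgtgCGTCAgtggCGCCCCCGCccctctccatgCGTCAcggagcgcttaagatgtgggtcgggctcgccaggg

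Promoter entries were matched by symbol for 7 of the 10 genes, and none was found for Egr1, Egr3 and Arc. There were 11 start sites in all, 5 of them for Egr2, of which the third is shown, and 1 for each other matched gene. At least 1 start of each of the 7 held TGACG or its reverse complement within these 200 bases, as did 15.7% of all 32851 mouse promoters in the same table. The windows shown for Egr2 and Nr4a1 lie inside the annotated genes, upstream of internal starts, and overlap no annotated exon. In Npas4, whose window lies in the first exon of the GENCODE annotation and is not shown, it lay at positions from -179 to -175 and -169 to -165. In Egr4, Fosb and Junb it lay at positions from -177 to -173 and -109 to -105, from -60 to -56, and from -106 to -102, counted back from the start. Among the 7 genes, a CArG box was matched at Egr2 alone, in 4 of its 5 entries, and in 1.18% of all promoters. Egr1, Egr3 and Arc could not be searched, so Egr2 is not set apart from them by this. EGR motifs were matched at Fosb and Nr4a1, and in 2.81% of all promoters, and TATAAA at Fos and in 9.96%. The matches describe letters in these windows, and no match says nothing of elements farther away.

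Old mice were first set against young mice, to ask how transcript levels differ with age. Of the 10 genes, 9 had lower fitted levels in old mice and Egr2 had a higher one. A fitted level below that of young mice was seen in 51.4% of all tested genes. The test was the quasi-likelihood one of edgeR, with Benjamini-Hochberg adjusted p-values over 14191 genes; 0.12% of these lay under 0.05, and none of the 10 did. At an unadjusted p under 0.05 there were 4 lower genes (Egr1, Egr3, Egr4 and Arc), beside 5.76% of all tested genes, and 1 higher gene (Egr2), beside 5.25%, so 5 in all, beside 11.0%. All 10 passed the filter on low counts. DESeq2 and limma-voom also called none of the 10. At an unadjusted p under 0.05 there were 3 of the 10 by DESeq2 and 6 by limma-voom. By the DESeq2 Wald test the unadjusted p was 0.114 for Egr2 and 0.0938 for Egr4. The median log2 fold change, old minus young, was -0.35 over the 10 genes and -0.01 over all tested genes. The genes sat on several chromosomes, and only Junb overlapped another annotated gene.

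**Figure D1:**
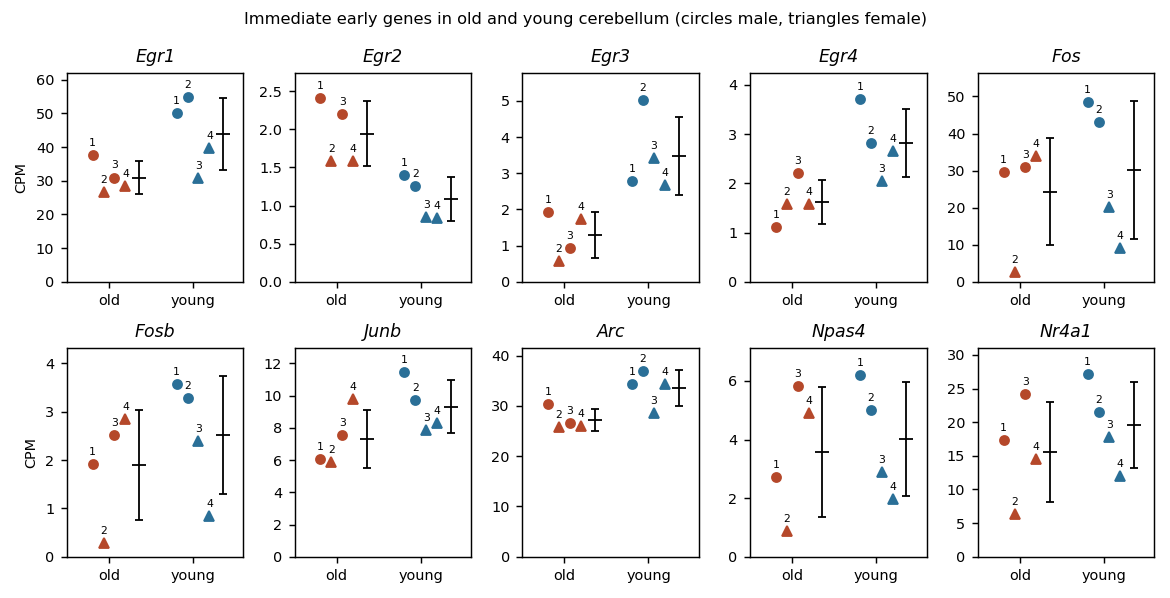
CPM of each gene (vertical axis) in the 4 old and 4 young libraries, with the replicate number at each point, circles for males, triangles for females, and the mean ± SD as a bar. Old and young values do not overlap for Egr2, where old is higher, and Egr3, where old is lower, and Fos in old 2 lies at 2.73 CPM.

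Egr1 and Egr3 had the smallest unadjusted p-values for age of the 10 genes, both lower in old mice, while Egr2 was higher. Egr1, on chromosome 18 at 34859823 to 34864984 (GRCm38, + strand), is the most abundant of the 4 per length of exon. Its level was 37.7, 26.8, 31.0 and 28.4 CPM in old 1 to old 4, against 50.1, 54.9, 30.8 and 39.7 CPM in young 1 to young 4. The groups overlapped only through young 3, which lay below old 1 and old 3. The log2 fold change was -0.49 ± 0.11 (SE), with an unadjusted p of 0.0011 and an adjusted p of 0.137 by edgeR, and adjusted p ran from 0.0746 to 0.461 over the alternatives. Leaving out each library in turn gave -0.58 to -0.41, and leaving out old 2, old 3 and young 4 together gave -0.34.

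Egr3, on chromosome 14 at 70077203 to 70082614 (+ strand), encodes a factor that follows Egr1 in time and shares its DNA motif. It had 1.93, 0.576, 0.943 and 1.74 CPM in old 1 to old 4, and 2.79, 5.02, 3.41 and 2.67 CPM in young 1 to young 4. Every old value lay below every young value, a separation in that direction seen in 3.42% of all tested genes. These levels rest on 12, 4, 6 and 11 counts in the old and 18, 32, 20 and 19 counts in the young libraries. The log2 fold change of -1.42 ± 0.38 (SE) was the largest of the 10 in size, with an unadjusted p of 0.00284 and an adjusted p of 0.2 by edgeR. It ran from -1.68 without old 4 to -1.20 without old 2, and was -0.99 without old 2, old 3 and young 4, the 3 libraries with most liver transcripts.

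Egr4, on chromosome 6 at 85511121 to 85513589 (- strand), also stood lower in old mice. Its values were 1.12, 1.58, 2.20 and 1.58 CPM in old 1 to old 4, against 3.72, 2.82, 2.05 and 2.67 CPM in young 1 to young 4. The groups overlapped through a single pair, old 3 above young 3. The log2 fold change was -0.79 ± 0.31 (SE), at an unadjusted p of 0.0267 and an adjusted p of 0.38 by edgeR. With each library left out, the unadjusted p was under 0.05 in 5 of 8 fits, against all 8 for Egr1, Egr3 and Arc.

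Egr2, on chromosome 10 at 67535475 to 67542188 (+ strand), was the exception. It had 2.41, 1.58, 2.20 and 1.58 CPM in old 1 to old 4, against 1.40, 1.25, 0.852 and 0.842 CPM in young 1 to young 4. Every old value lay above every young value, which 3.15% of all tested genes did, and in each age group both males lay above both females. The counts were low, at 50 over the 4 old and 28 over the 4 young libraries. The log2 fold change was 0.83 ± 0.32 (SE), with an unadjusted p of 0.026 and an adjusted p of 0.376 by edgeR, and it lay between 0.80 and 0.88 when each library was left out, with an unadjusted p under 0.05 in 4 of the 8 fits. The 9 microglia markers summed to 236, 232, 203 and 403 CPM in old 1 to old 4. In young 1 to young 4 they summed to 136, 166, 164 and 125 CPM, also without overlap with old. The highest old sum, in old 4, stood beside Egr2 at 1.58 CPM, and the lowest, in old 3, beside Egr2 at 2.20 CPM. Young 4 had the lowest young value of both. The fitted values of all 9 were above 0, with a median log2 fold change of 0.76, and each had counts in every library; none passed over all genes, with 7 higher at an unadjusted p under 0.05, where 5.25% of all tested genes lay. Their part in the Egr2 difference was not tested.

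Arc, on chromosome 15 at 74669083 to 74672570 (- strand), had the smallest spread between animals. It was at 30.3, 25.8, 26.6 and 26.0 CPM in old 1 to old 4, and 34.3, 37.0, 28.6 and 34.4 CPM in young 1 to young 4. The means were 27.2 ± 2.13 CPM in old and 33.6 ± 3.53 CPM in young mice (SD, n = 4 each), and only old 1 and young 3 crossed. The log2 fold change was -0.31 ± 0.10 (SE), with an unadjusted p of 0.0109 and an adjusted p of 0.282 by edgeR. It was -0.20 without old 2, old 3 and young 4, at an unadjusted p of 0.203. Granule neuron markers, whose cells make up most of the cerebellum, were also mostly lower, with 11 of 12 tested markers negative at a median of -0.15, none past the threshold, and sums of 4697 to 6549 CPM in old and 5144 to 7949 CPM in young. Each of the 12 had counts in every library. The lowest granule sum of the old mice was in old 4, with Arc at 26.0 CPM. That of the young mice was in young 2, with Arc at 37.0 CPM, its highest level. Of 11 Purkinje cell markers 10 were negative as well, with a median of -0.17 and sums of 4001 to 5371 CPM in old and 4538 to 5793 CPM in young. Negative values were also found for 5 of 6 interneuron, 5 of 6 astroglia and 4 of 5 oligodendrocyte markers, but for 1 of 7 endothelial markers. The part of any of these cells in the lower Egr1 and Arc levels was not tested.

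**Figure D2:**
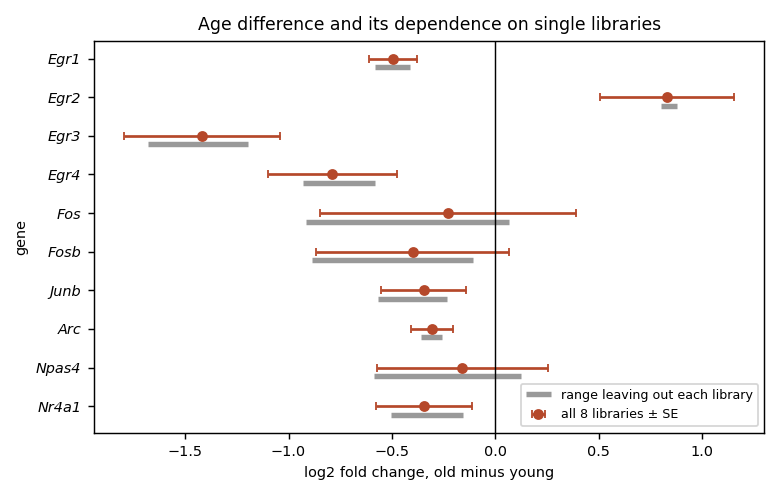
Log2 fold change (horizontal axis, old minus young) of each gene with its SE in the fit of all 8 libraries, and below it, in grey, the range when each library is left out. The grey ranges of Fos and Npas4 cross 0, those of the other 8 genes do not.

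For Fos, Fosb, Npas4 and Nr4a1 the age means lay closer together than the SD of either age group. Fos, on chromosome 12 at 85473890 to 85477273 (+ strand), was at 29.5, 2.73, 31.0 and 33.9 CPM in old 1 to old 4, against 48.4, 43.1, 20.3 and 9.12 CPM in young 1 to young 4. It was lowest in old 2 and next lowest in young 4, both females, and highest in the 2 young males. The highest old library stood 12.4 times above the lowest, and the highest young library 5.31 times. The log2 fold change with age was -0.23 ± 0.62 (SE), at an adjusted p of 0.929 by edgeR, and it was 0.07 without old 2 and -0.91 without old 4.

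Npas4, on chromosome 19 at 4984355 to 4990316 (- strand), followed the same libraries. It had 2.73, 0.863, 5.82 and 4.89 CPM in old 1 to old 4, and 6.20, 5.02, 2.90 and 1.96 CPM in young 1 to young 4. The groups overlapped over most of their range, with a log2 fold change of -0.16 ± 0.41 (SE), which turned positive without old 1 (0.13) and without old 2 (0.09). Nr4a1, on chromosome 15 at 101254269 to 101274795 (+ strand), had 17.3, 6.33, 24.2 and 14.5 CPM in old 1 to old 4, against 27.1, 21.5, 17.7 and 12.1 CPM in young 1 to young 4. Old 2 and young 4 were again the lowest of their groups, and the log2 fold change was -0.35 ± 0.23 (SE), at an adjusted p of 0.626 by edgeR, and -0.16 without old 2.

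Fosb, which can yield the long-lived deltaFosB protein, ranged from 0.288 to 2.84 CPM in old and from 0.842 to 3.57 CPM in young, with its lowest values in the same 2 libraries. Old 2 held 2 Fosb counts, below the floor of 3. Its log2 fold change was -0.40 ± 0.47 (SE), and it ran from -0.89 without old 4 to -0.11 without old 2. Junb, an AP-1 subunit that can replace or restrain Jun, ranged from 5.90 to 9.78 CPM in old and from 7.84 to 11.5 CPM in young, with a log2 fold change of -0.35 ± 0.21 (SE), which ran from -0.57 without old 4 to -0.23 without old 1. The 3′ end of Junb, on chromosome 8 at 84974484 to 84978718 (- strand), overlaps Prdx2 on the other strand, and the strand setting of the counting is not given in the sources, so reads of the pair cannot be told apart there. Prdx2 itself was at 59.2 to 81.1 CPM in old and 75.5 to 78.6 CPM in young.

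**Figure D3:**
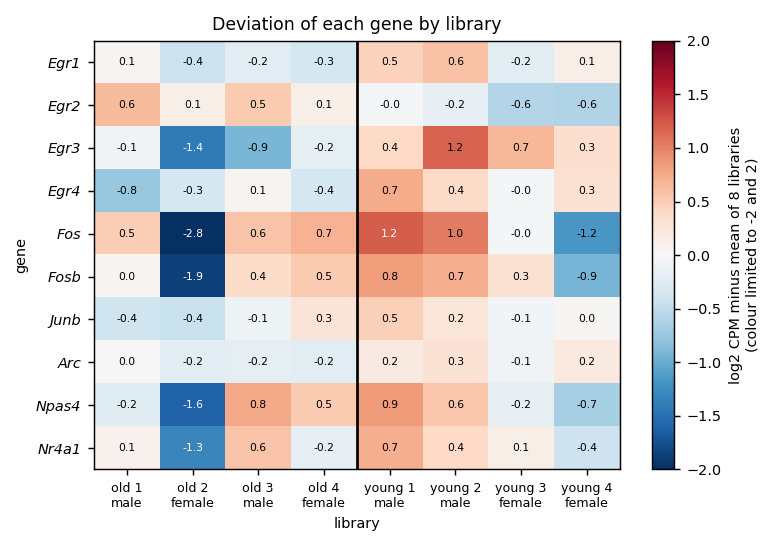
Deviation of each gene's log2 CPM (rows) from its mean over the 8 libraries, by library (columns, old left of the line, with the sex), blue for lower and red for higher. Fos, Fosb, Npas4 and Nr4a1 share low values in old 2 and young 4, while Egr1, Egr3, Egr4 and Arc are mostly lower left of the line.

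Patterns over the 8 libraries were then compared between genes. Likeness was measured as the root mean square difference between the log2 CPM deviations of a pair over the 8 libraries, so that a small value means deviations close in size. Genes that vary little can be close without sharing a direction, as Egr2 and Arc were at 0.53, against 0.57 for Fos and Npas4. Egr1 and Arc were the closest pair at 0.18, followed by Junb and Arc at 0.26. Fosb and Npas4 differed by 0.28, Npas4 and Nr4a1 by 0.34, and Fos and Fosb by 0.44. Junb was also near Egr4 (0.29) and Egr1 (0.31), and Egr1 near Egr4 (0.34). Egr2 and Egr3 were far apart at 1.08, and Egr1 and Fos at 1.12. The measure is not scaled for spread, so a gene that varies widely, such as Fos, can be far from one that varies little. Egr1 and Fos were both lowest in old 2 and highest in young 1 and young 2. Old 2 held the lowest value of 8 of the 10 genes, all but Egr2 and Egr4, and young 1 or young 2 the highest of 9, all but Egr2. Over all tested genes, old 2 was the lowest library for 11.8%, and young 1 and young 2 were the highest for 2340 and 1424 of the 14191. Old 2 was also the library with the highest liver sum, 84.2 CPM, and the highest choroid plexus sum, 888 CPM, while young 4, with a liver sum of 21.2 CPM, had the lowest choroid plexus sum, 35.2 CPM. Old 3, with a liver sum of 23.6 CPM, had Fos at 31.0 CPM. The part of these transcripts in the low values was not tested.

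Per kilobase of annotated exon, Fos, Arc and Egr1 were the most abundant of the 10 in both ages. Fos had 10.3 ± 6.16 CPM per kb in old and 12.9 ± 7.92 in young, Arc 8.89 ± 0.696 in old and 11.0 ± 1.15 in young, and Egr1 6.91 ± 1.07 in old and 9.79 ± 2.40 in young (SD, n = 4 each). The spread of Fos covers the levels of the other 2. Nr4a1 and Junb followed, at 4.45 and 3.19 CPM per kb in old and 5.59 and 4.05 in young. The other 5 lay between 0.294 (Egr3) and 0.864 (Npas4) CPM per kb in old, and between 0.320 (Egr2) and 1.31 (Egr4) in young. Within these, Fosb (0.303 ± 0.182) and Egr3 (0.294 ± 0.145) in old differed by less than their SDs, as did Npas4 and Egr4 in old. In young, Fosb (0.404 ± 0.197) and Egr2 (0.320 ± 0.083) differed by less than the SD of Fosb.

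Sex was balanced within each age and was fitted beside it. All 10 genes had lower fitted levels in females than in males, with a median log2 fold change, female minus male, of -0.51, against 0.01 over all tested genes, of which 47.1% were below 0. None passed the adjusted threshold, which 0.0423% of tested genes did, and 2 had an unadjusted p under 0.05, beside 2.14% of genes in that direction and 4.76% in both. That count was 5 without old 4 and 5 by limma-voom, but 1 (Egr1) without old 2, old 3 and young 4. Without those 3 libraries 9 of the 10 genes, all but Junb, were lower in females. DESeq2 and limma-voom called none of the 10 either. Nr4a1 averaged 12.7 ± 4.81 CPM in females and 22.5 ± 4.17 CPM in males (SD, n = 4 each), a log2 fold change of -0.86 ± 0.23 (SE), with an adjusted p of 0.93 by edgeR, and it was -0.37 without old 2, old 3 and young 4. For Nr4a1, 3 of the 4 female values lay below every male value, and young 3, a female at 17.7 CPM, lay just above old 1, a male at 17.3 CPM. Egr1 averaged 31.4 ± 5.76 CPM in females and 43.4 ± 11.0 CPM in males, a log2 fold change of -0.45 ± 0.11 (SE). Fos had a sex value of -1.22 ± 0.62 (SE), and its lowest libraries, old 2 and young 4, are both female. It was -2.07 without old 4, and -0.54 without old 2, old 3 and young 4. Without the same 3 libraries the sex value of Npas4 was -0.18, against -0.92 with all 8, and that of Fosb was -0.09, against -0.88. That of Egr3 was -0.18, against -0.36. Those of Egr1, Arc, Egr2 and Egr4 were larger in size, at -0.61, -0.27, -0.61 and -0.32, against -0.45, -0.15, -0.57 and -0.31.

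Within each sex, with 2 animals a group, the age differences of the EGR genes and Arc kept their sign, as did those of Fosb, Junb and Nr4a1. Fosb and Junb had -0.03 ± 0.80 and -0.05 ± 0.29 (SE) in females, against -0.62 ± 0.62 and -0.63 ± 0.28 in males. Egr3 had a log2 fold change, old minus young, of -1.40 ± 0.59 (SE) in females and -1.44 ± 0.54 (SE) in males, and Egr2 of 0.89 ± 0.53 in females and 0.79 ± 0.45 in males. Egr1 had -0.36 ± 0.17 in females and -0.61 ± 0.16 in males, and Arc -0.29 ± 0.16 and -0.33 ± 0.15. Fos and Npas4 had opposite signs, at 0.32 ± 0.999 and 0.22 ± 0.70 in females and -0.60 ± 0.83 and -0.39 ± 0.54 in males. The interaction of age and sex passed for none of the 10 by edgeR, DESeq2 or limma-voom, nor at an unadjusted p under 0.05 by edgeR, where 2.3% of all tested genes lay and 0.0% passed the adjusted threshold. The Fos interaction, the age difference in females minus that in males, changed sign with single libraries: it was 1.83 without old 2 and -1.79 without old 4. Each of these 2 fits left 1 old female, so only the size of the value is given.

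**Figure D4:**
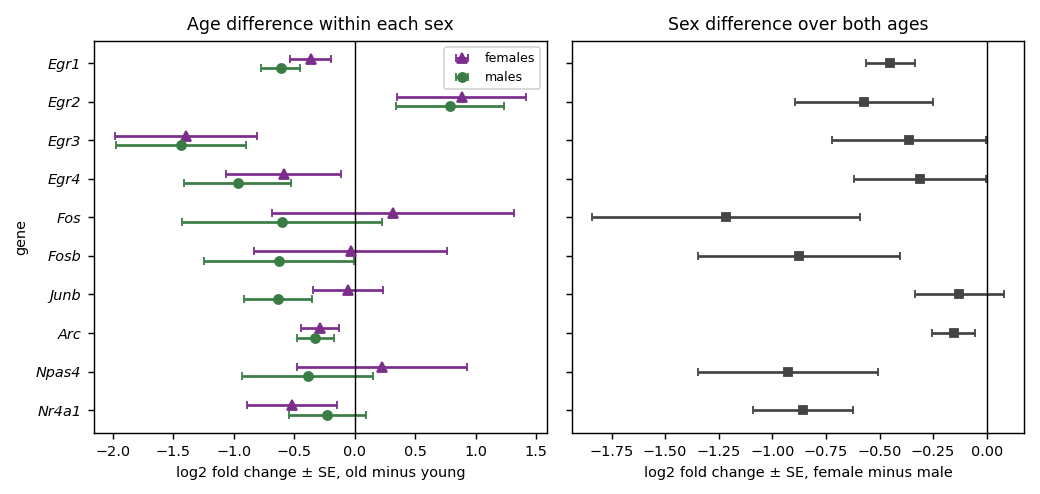
Left, log2 fold change with SE for age (old minus young) within females (triangles) and males (circles), from a fit of the 4 age-by-sex groups of 2 animals. Right, log2 fold change with SE for sex (female minus male) over both ages, where all 10 genes lie below 0.

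Other genes of the same response were taken as 4 lists of 88 symbols in all, and none of those tested passed the threshold for age. Other early transcription factors did not lean lower: 6 of 20 tested were negative, with a median of 0.11. Jun, the main partner of Fos, was at 81.2, 89.1, 68.1 and 72.1 CPM in old 1 to old 4, against 139, 98.5, 79.4 and 103 CPM in young 1 to young 4, a log2 fold change of -0.42 ± 0.15 (SE). The groups overlapped, with young 3 below old 1 and old 2. Klf6, a Krueppel-like factor, had 0.27 ± 0.08 (SE) and the C/EBP factor Cebpb 0.41 ± 0.23 (SE).

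Early feedback and signalling genes were split evenly, with 14 of 25 negative and a median of -0.01. Ptgs2, the inducible cyclooxygenase COX-2, was at 2.09, 2.01, 5.19 and 8.36 CPM in old 1 to old 4, against 0.620, 0.941, 1.19 and 1.26 CPM in young 1 to young 4. Every old value lay above every young value, and the log2 fold change was 2.10 ± 0.56 (SE), with an adjusted p of 0.213 by edgeR. Dusp1, a phosphatase that switches off MAP kinases, had -0.46 ± 0.29 (SE) and Spry2, an inhibitor of receptor tyrosine kinase signalling, -0.15 ± 0.09 (SE).

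Among later activity-induced genes, which include targets of the early factors, 10 of 13 were negative, with a median of -0.10, and 4 were lower at an unadjusted p under 0.05. Over all tested genes 51.4% were negative and 5.76% were lower at that p. Vgf, a neuropeptide precursor, was at 42.4, 27.6, 34.0 and 34.1 CPM in old 1 to old 4, against 71.0, 69.8, 42.8 and 38.0 CPM in young 1 to young 4. Old 1 alone reached into the young range, and the log2 fold change was -0.65 ± 0.13 (SE), with an unadjusted p of 0.000261 and an adjusted p of 0.074 by edgeR. Nptx2, a pentraxin that clusters AMPA receptors, had -1.27 ± 0.45 (SE) and Scg2, secretogranin II, -0.29 ± 0.12 (SE).

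Of the kinases and transcription factors upstream of the early genes, 17 of 29 were negative, with a median of -0.07. Srf, the serum response factor, was at 13.0, 12.4, 12.1 and 13.4 CPM in old 1 to old 4, against 21.1, 15.4, 16.5 and 15.9 CPM in young 1 to young 4. All 4 old values lay below the young ones, and the log2 fold change was -0.43 ± 0.14 (SE), with an adjusted p of 0.277 by edgeR. Ppp3ca, the catalytic subunit of calcineurin, had -0.20 ± 0.08 (SE), also without overlap, and Camk2b, the beta subunit of CaM kinase II, -0.24 ± 0.10 (SE).

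**Figure D5:**
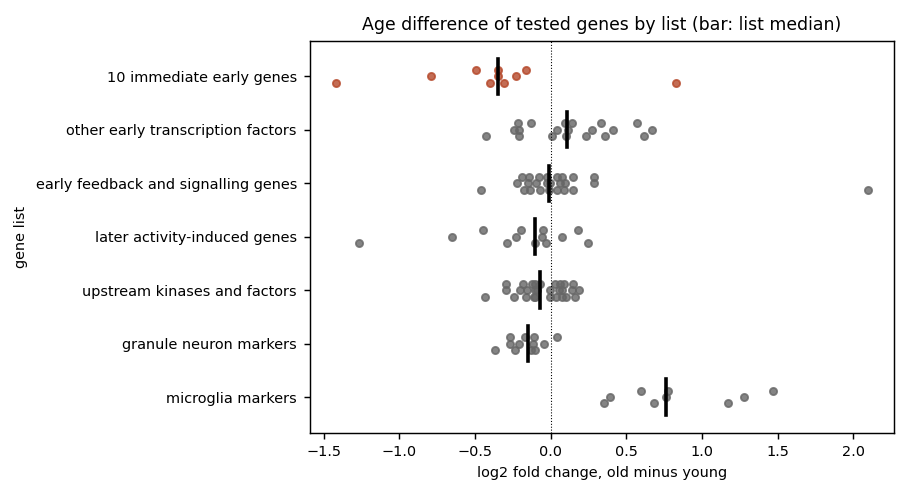
Log2 fold change (horizontal axis, old minus young) of each tested gene, by list, with the list median as a bar. The 10 immediate early genes have a median of -0.35 with Egr2 at 0.83, the microglia markers lie above 0, and the outlying point above 2 is Ptgs2.

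By the same root mean square measure, the genes most like Egr1 over the 8 libraries were Gap43 (0.13), Rims3 (0.14), Smim10l2a (0.15), Tmem150c (0.16) and Cacnb3 (0.17), out of 3447 tested genes that averaged 3 or more in log2 CPM with an SD of 0.2 or more. Gap43, a growth cone protein gene, averaged 118 ± 28.4 CPM in old and 160 ± 28.9 CPM in young mice, and Rims3, of the presynaptic active zone, 254 ± 46.3 CPM in old and 350 ± 48.9 CPM in young (SD, n = 4 each). Most like Egr3 were Ngef (0.32), Syt5 (0.36), Sox11 (0.37), Gpr26 (0.37) and Ppp1r14c (0.37). Ngef, a guanine nucleotide exchange factor, averaged 8.57 ± 3.27 CPM in old and 17.5 ± 5.68 CPM in young mice. These genes were selected for their likeness, so their age differences, all negative, are no further evidence.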

How the data were processed

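The authors deposited 1 table per library of raw counts by gene, not normalized, per the file headers. The submitters' processing notes list the aligner STAR 2.7.5b, the trimmer Trimmomatic 0.39 and the counter featureCounts among other tools, on GRCm38 (mm10). Which annotation and strand setting the counting used is not given in the sources used here. Spreadsheet-style dates replaced 24 names in 7 of the 8 tables, none of them a gene reported here, and the tables were joined by row. Coordinates and exon lengths are from GENCODE M21 (GRCm38).

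Genes were filtered with filterByExpr (minimum count 10, over the 4 age-by-sex groups), scaled with TMM and tested with edgeR 4.0.16 in R 4.3.3, quasi-likelihood with robust dispersions by its newer method, on age and sex in all 8 libraries. With all 8 libraries, the interaction was tested on the 4 groups of 2 mice. Each log2 fold change is old minus young, or female minus male; its SE is its size divided by the root of the F statistic. The Benjamini-Hochberg adjustment covered all tested genes, at a threshold of 0.05. A prior count of 2 was added for log2 CPM. Alternatives included DESeq2 1.42.0 and limma-voom (limma 3.58.1). No pair of libraries within a group agreed within sampling noise. Replicate numbers were not used to pair mice.

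Named genes were the 10 members, for each list the genes past the threshold or otherwise the 3 with the smallest p for age, and 5 genes each most like Egr1 and Egr3. Outside that rule, Gabra6, Calb1, Alb and Prdx2 are named as checks, and Nr4a2, Nr4a3, Fosl2 and Spry4 were chosen after their values were seen. Cyr61, Mkl1 and Mkl2 of the lists stand in the tables as Ccn1, Mrtfa and Mrtfb. Members and lists were chosen with earlier results of these data known.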

Additional observations from a re-analysis of the deposited data

Results flagged for a closer look

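Fos in old 2 stood apart from the other old libraries. It was at 2.73 CPM there, from 19 counts, against 29.5, 31.0 and 33.9 CPM in old 1, old 3 and old 4, and its gap to the nearest of them was 0.859 of the range of the group. With 10 genes in 2 groups, 20 such gaps were examined at a level that chance passes about 1 time in 20, and this was the 1 that passed. Old 2 also had the highest sums of liver and choroid plexus transcripts, and their part in the low Fos value was not tested. No interaction of age and sex passed for any of the 10 genes.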

How the results depend on the processing

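None of the 10 genes passed the adjusted threshold for age, sex or their interaction in any alternative run. Of 175 age values under alternatives 172 kept their sign. With each library left out, Fos ran from -0.91 to 0.068 and Npas4 from -0.59 to 0.13; Fos turned positive without old 2, and Npas4 without old 1 or old 2. The count of all genes passing for age, 17, was 103 with age in weeks, 125 by DESeq2, 1 by limma-voom, 26 with the older dispersions, 184 without old 2, old 3 and young 4, and 0 to 63 with each library left out (0 without young 3 or young 4, 2 without old 1 or young 1, 8 without young 2, 49 without old 3 and 63 without old 2). For sex, 6 genes passed, and 46 without old 3, 40 without old 2, old 3 and young 4, 9 by DESeq2, and 4 to 7 in the other fits. For the interaction no gene passed, and 1 did by DESeq2. Interaction fits with libraries left out held 1 mouse in at least 1 age-by-sex group, so their counts are not given. The cause of the differences between fits was not tested. With the replicate number as a block 1 gene passed. Same-numbered mice had correlations of 0.156, -0.222, -0.048 and -0.252 between their deviations, and old 1 correlated best with young 2. These values gave no ground for pairing by number. Each rests on 1 pair of libraries, so they cannot exclude that same-numbered mice were handled together. A filter of 50 counts in 4 libraries left 5 of the 10 genes; depth limits the other 5 (Egr2, Egr3, Egr4, Fosb and Npas4).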

Other observations

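Old 2, the library with the lowest value of 8 of the 10 genes, was also lowest for other early genes, chosen here after their values were seen. It held the lowest level of 6 of 20 other early transcription factors, 8 of 25 early feedback and signalling genes and 7 of 13 later activity-induced genes, while 11.8% of all tested genes were lowest there. Both paralogs of Nr4a1 were among them. Nr4a2 was at 7.34 CPM in old 2 and 19.6 to 27.0 CPM in the other old mice, and at 12.2 CPM in young 4 and 15.9 to 33.8 CPM in the other young mice. Nr4a3 was at 11.1 CPM in old 2 and 28.7 to 48.7 CPM in the other old mice, and at 13.6 CPM in young 4 and 22.8 to 34.2 CPM in the other young mice. Fosl2, a Fos paralog, was at 11.4 CPM in old 2 and 14.2 CPM in young 4, and from 19.4 to 38.7 CPM elsewhere. Spry4, an inhibitor of the MAP kinase pathway, was at 17.7 CPM in old 2 and 27.5 CPM in young 4, and from 37.0 to 61.8 CPM elsewhere.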
